A study of Mus musculus with 2 samples.

Results

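Keratins are the intermediate filament proteins of epithelial cells, and 9 keratin genes that mark the surface and pigment epithelia of the eye were followed here: Krt8, Krt18, Krt7, Krt19, Krt5, Krt14, Krt15, Krt17 and Krt12. They are a list of symbols, drawn up with earlier results of these data known, and each symbol matched 1 of the 32285 genes of the count matrices. Single-cell RNA-seq was performed on E17.5 eye cups from 2 strains of mice, with 1 library per genotype made from 3 pooled eye cups according to its title. In both strains the last coding exon of mouse Myrf was replaced by the human exon on a C57BL/6J background. Myrf humWT/humWT animals carried the normal human exon and were the controls. Myrf humdG/humdG animals carried the human exon with the C-terminal frameshift variant found in families with nanophthalmos, an eye that is small but otherwise normally built. Both alleles were homozygous and present in every cell of the animal, and males and females were collected. The paper reports that humdG homozygotes die before birth, with none found after it. Titles, genotype fields and the design text name these strains and were followed here, but the extraction text of both samples speaks of Rx>cre Myrf fl/fl and Myrf fl/fl animals instead. Myrf encodes a membrane-bound transcription factor of the retinal pigment epithelium (RPE). With 1 library per genotype there is no replicate, so levels and ratios are given with no test of the genotypes, and their intervals cover counting error only.

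A keratin filament is built from pairs of a type I and a type II keratin, and cells choose their pairs by epithelium. Krt8 (type II) and Krt18 (type I) form the filaments of simple, single-layered epithelia such as the RPE, and Krt7 and Krt19 join them in ducts and mucosal surfaces. Krt5 (type II) with Krt14 and Krt15 (both type I) form the filaments of the basal layer of stratified epithelia such as the cornea, conjunctiva and eyelid skin, Krt17 appears in skin appendages and stressed epidermis, and Krt12 (type I) is the keratin of the corneal epithelium.

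The genes lie in the 2 keratin clusters of the mouse genome (GRCm38, GENCODE M21 annotation, all protein coding). The type II genes Krt7 (chr15:101411043-101430313, plus strand), Krt5 (chr15:101707070-101712898, minus strand) and Krt8 (chr15:101996698-102004482, minus strand) share their cluster with 1 type I gene, Krt18 (chr15:102028180-102032027, plus strand). Krt8 and Krt18 are neighbours that point away from each other, with 23.7 kb between them. The other type I genes lie on chromosome 11, all on the minus strand: Krt12 (chr11:99415666-99422259), Krt15 (chr11:100131758-100135928), Krt19 (chr11:100140810-100148665), Krt14 (chr11:100203162-100207548) and Krt17 (chr11:100256217-100261029). Krt15 and Krt19 are next to each other with 4.88 kb between them, and the 5 genes span 845 kb. In the last 500 bases of the transcripts, the part that 3′ libraries read, Krt14 and Krt17 share 9.53% of their 50-base words with each other and with Krt16, so a part of their UMIs could be exchanged or lost. The other members shared at most 1.11% with any other gene.

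The sequence just upstream of 4 members is shown because these genes divide the tissue: Krt8 and Krt18 are the pair found in RPE, Krt5 is found in surface epithelium across its cell patterns, and Krt12 in a subset of those cells. The stretches come from the RefSeq promoter table (GRCm38.p6), which held 6 of the 9 members, are written 5′ to 3′ on the strand of the gene, and leave out bases that lie in the member's own exons. Capitals mark a match to 1 of 3 motifs searched on both strands of the 250 bases before the RefSeq start: the TATA box (TATAAA), the GC box (GGGCGG) and the AP-2 site (GCCNNNGGC). The stretches are Krt8 at chr15:102004483-102004592 (minus strand), Krt18 at chr15:102027966-102028179 (plus strand), Krt5 at chr15:101712906-101713155 (minus strand) and Krt12 at chr11:99422260-99422509 (minus strand).
Krt8: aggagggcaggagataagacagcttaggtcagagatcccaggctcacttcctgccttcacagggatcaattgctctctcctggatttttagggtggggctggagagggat
Krt18: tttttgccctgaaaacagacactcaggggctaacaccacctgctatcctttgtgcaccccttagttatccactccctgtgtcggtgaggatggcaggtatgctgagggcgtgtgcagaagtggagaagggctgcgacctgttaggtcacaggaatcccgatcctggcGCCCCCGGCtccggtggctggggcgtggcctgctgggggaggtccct
Krt5: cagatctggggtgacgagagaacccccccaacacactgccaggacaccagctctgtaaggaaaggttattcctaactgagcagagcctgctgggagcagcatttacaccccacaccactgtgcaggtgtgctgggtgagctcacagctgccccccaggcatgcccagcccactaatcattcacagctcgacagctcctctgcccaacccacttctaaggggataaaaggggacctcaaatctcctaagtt
Krt12: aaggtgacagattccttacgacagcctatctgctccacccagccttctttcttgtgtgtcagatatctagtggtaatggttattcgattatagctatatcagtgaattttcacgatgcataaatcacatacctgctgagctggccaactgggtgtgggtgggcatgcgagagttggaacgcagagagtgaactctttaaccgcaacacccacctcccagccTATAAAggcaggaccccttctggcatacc
Krt12 had a TATA box 29 to 24 bases before its start, a motif held by 12.4% of 32851 RefSeq windows of the same length. Krt18 had an AP-2 match 83 to 75 bases before its start, held by 13.7% of windows. Krt8 and Krt5 had no match to these letters in their windows, and GC boxes were held by 32.7% of all windows.

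The libraries held 17421 (humWT) and 19565 (humdG) barcodes with 129135207 and 114319529 UMIs, and 102 barcode sequences occurred in both. After filtering, 16166 and 18173 cells remained with median depths of 3785 and 2625 UMIs. Cells were clustered with every keratin gene kept out of the genes used, and clusters were named from markers that hold no keratin, so that the keratin levels did not define the groups they are described in. Of 24 clusters, 18 received a name in 14 classes, and the 6 unnamed clusters held 6414 and 11150 cells. The surface epithelium-like class had 106 and 127 cells with median depths of 6449.5 and 2033 UMIs, and the RPE-like class had 545 and 391 cells with median depths of 3943 and 2618 UMIs. Both classes are described here by markers from the lists that named them, so the higher levels follow from the naming and are no separate check. Epcam stood at 171 (humWT) and 180 (humdG) CPM (UMIs of the gene scaled to a common total of the class) in surface epithelium-like cells against 3.69 and 4.86 in all other cells, and Sfn at 716 and 720 against 2.94 and 3.11. In RPE-like cells Dct stood at 5105 and 4418 CPM against 335 and 195 in all other cells, and Ttr at 3922 and 2892 against 32.3 and 11.3. The markers were uneven inside the surface epithelium-like class: 45 of its 106 humWT cells and 87 of its 127 humdG cells formed a sub-cluster with few of them, so most of the humdG class by cell number did not carry the markers of its name.

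Over all cells kept, the 9 genes gave 70058 of 227756318 UMIs. Krt15 gave 34793, Krt18 10081, Krt5 9798, Krt19 4761, Krt12 4284, Krt8 2539, Krt14 2446, Krt7 1025 and Krt17 331. Krt15 alone therefore gave more UMIs than the next 3 members together. Levels between genes are UMIs of 3′ tags, 1 tag per molecule whatever its length.

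Krt18 was highest in RPE-like cells and the 8 other members were highest in surface epithelium-like cells, in both libraries, and for all 9 the interval of the highest class did not overlap that of the class below it. Surface epithelium-like cells held 77.5% (humWT) and 58.6% (humdG) of all Krt15 UMIs although they were 0.656% and 0.699% of the cells. RPE-like cells held 68.1% and 65.8% of all Krt18 UMIs and 43.8% and 39.2% of all Krt8 UMIs, with 3.37% and 2.15% of the cells. The order of classes is a description, since the classes were made from the same cells.

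**Figure D1:**
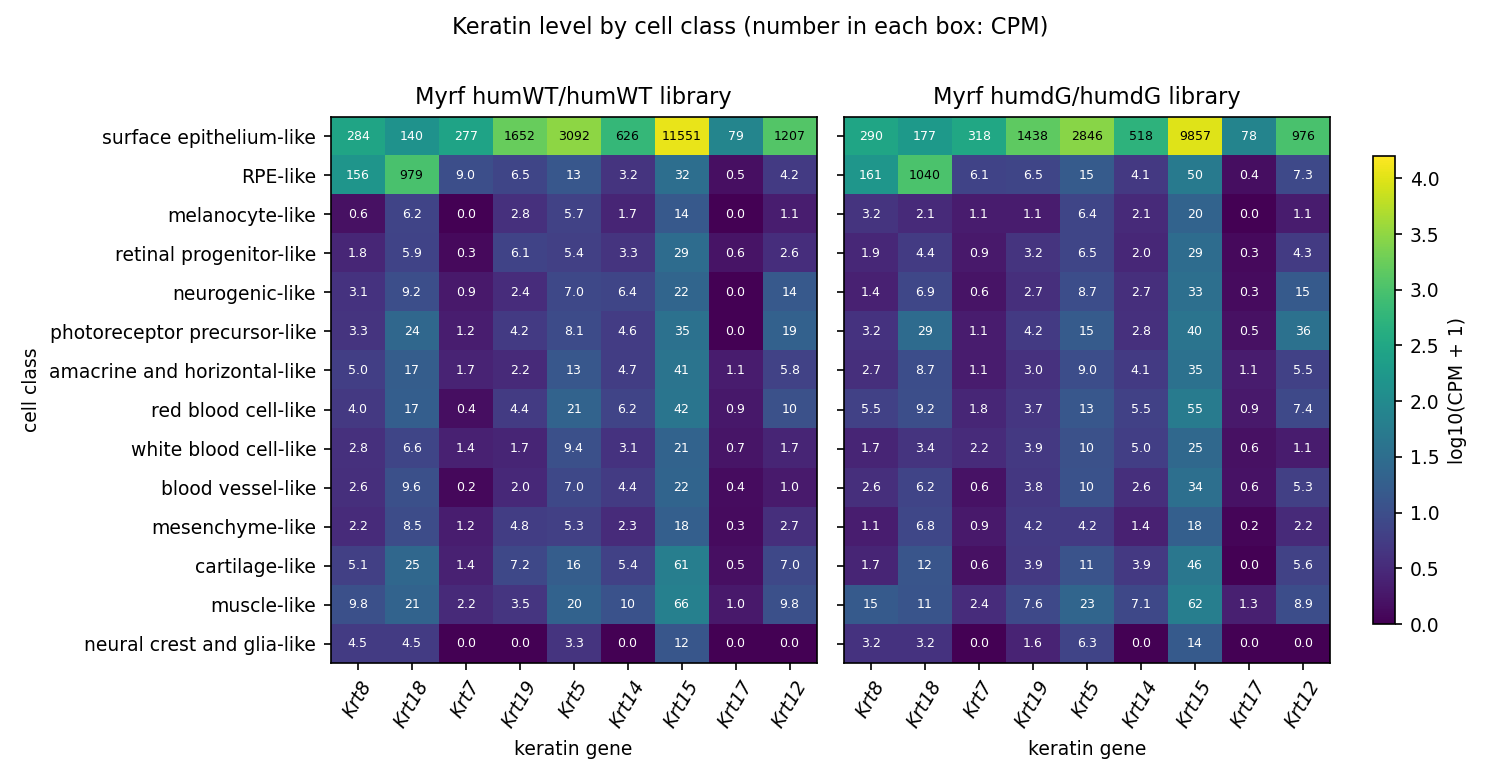
Level of the 9 keratins in each of 14 cell classes, for the humWT library (left) and the humdG library (right); color gives log10(CPM + 1) and the number in each box is the CPM. Surface epithelium-like cells form the bright top row for every member but Krt18, whose brightest box, 979 and 1040 CPM, is in the RPE-like row.

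RPE-like cells carried Krt18 and Krt8 and little of the other members. Krt18 stood at 979 CPM (95% exact Poisson interval 949 to 1009) in humWT and 1040 CPM (1000.4 to 1081) in humdG. Krt8, its type II partner, stood at 156 CPM (144 to 168) and 161 CPM (145 to 178). The pair was unequal in RPE-like cells, with 6.29 and 6.47 Krt18 UMIs for each Krt8 UMI, and the other way round in surface epithelium-like cells, with 0.491 and 0.609. In the red blood cell-like class, which should lack keratins and serves as the measure of free RNA, Krt18 stood at 17.2 and 9.23 CPM and Krt8 at 3.97 and 5.54 CPM, far under the RPE-like levels.

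A Krt18 UMI was found in 61.7% (humWT) and 52.7% (humdG) of RPE-like cells and a Krt8 UMI in 31.9% and 27.6%. With every cell thinned to 1000 UMIs, which left out 0 and 1 cells, the shares were 36.9% (exact interval 32.8 to 41.1) and 31.0% (26.5 to 35.9) for Krt18, and in the red blood cell-like class 2.59% and 0.855%, at median depths of 4063.5 and 4248.5 UMIs. For Krt8 they were 7.89% and 7.18%, against 0.199% and 0.427%. In the 109 and 68 RPE-like cells that reached 10000 UMIs, a limit chosen after seeing the data, 97.2% and 98.5% had a Krt18 UMI and 84.4% and 86.8% a Krt8 UMI. The median deep cell held 25 and 24 UMIs of Krt18 and 4 and 3 UMIs of Krt8. Both members of the pair were found in 91 of 109 and 58 of 68 deep cells, Krt18 alone in 15 and 9, Krt8 alone in 1 and 1, and neither in 2 and 0.

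The Krt18 level was not even within the class. The larger of the 2 RPE-like clusters (471 and 375 cells) stood at 1097 and 1076 CPM of Krt18, and the smaller (74 and 16 cells) at 77.6 and 69.4 CPM. Krt18 was among the top 10 genes of the larger cluster. The smaller was led by Ankfn1, Otx2os1, Pde1c and Oca2 and raised 7 of the 8 RPE markers, all but Ttr. Krt8 followed the same order, at 175 and 166 CPM in the larger cluster and 9.95 and 23.1 CPM in the smaller, where it rested on 5 and 2 UMIs.

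The stratified keratins in RPE-like cells were at the level of free RNA. Krt15 stood at 32.0 and 50.1 CPM against 42.3 and 55.4 in red blood cell-like cells, Krt5 at 12.7 and 15.1 against 20.7 and 12.9, Krt12 at 4.17 and 7.33 against 10.1 and 7.38, and Krt14 at 3.24 and 4.07 against 6.17 and 5.54. Krt19 stood at 6.49 and 6.51 CPM against 4.41 and 3.69, with overlapping intervals. In the deep RPE-like cells Krt15 was lower, at 11.4 and 15.9 CPM, and Krt5 stood at 5.92 and 1.99. Krt7 differed from these: its 9.04 CPM (6.43 to 12.4) in humWT lay above the interval in red blood cell-like cells (0.0112 to 2.45), while 6.11 CPM in humdG, from 15 UMIs, overlapped it. Krt17 rested on 2 and 1 UMIs.

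**Figure D2:**
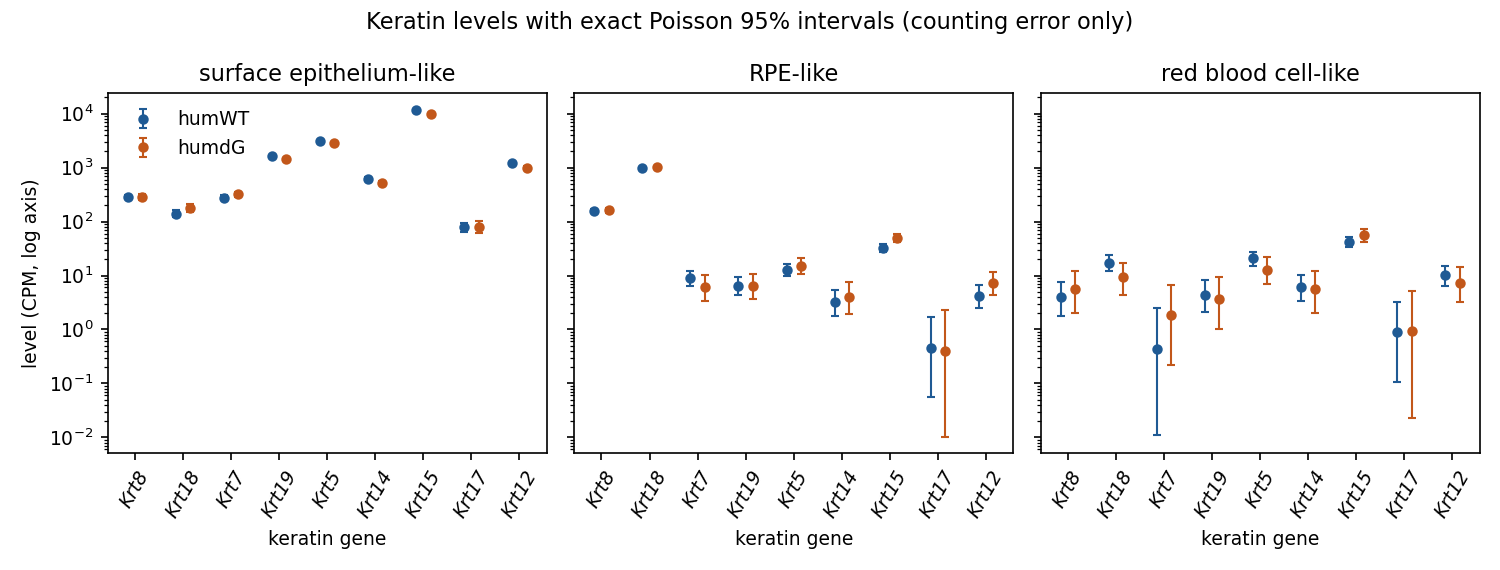
Level of each keratin in CPM on a log axis in surface epithelium-like, RPE-like and red blood cell-like cells, with exact Poisson 95% intervals; blue points are the humWT library and orange points the humdG library. In RPE-like cells only Krt8 and Krt18 stand well above the red blood cell-like panel in both libraries, and Krt7 stands above it in humWT. In surface epithelium-like cells all 9 stand well above it.

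Surface epithelium-like cells were dominated by Krt15, at 11551 CPM (11375 to 11728) in humWT and 9857 CPM (9641 to 10076) in humdG. Krt5, the type II gene of the basal layer, followed at 3092 and 2846 CPM. Krt19 stood at 1652 and 1438, the corneal gene Krt12 at 1207 and 976, and Krt14 at 626 and 518. Krt8 (284 and 290), Krt7 (277 and 318), Krt18 (140 and 177) and Krt17 (79.2 and 78.3) were the lowest. The order was the same in both libraries except for the places of Krt8 and Krt7, whose intervals overlapped in each. Type I UMIs outnumbered type II UMIs of the members 4.18 to 1 and 3.78 to 1. Krt12 was thus present in eye cups whose sample description lists the cornea among the parts taken off. The paper's methods for these libraries instead name the lens and optic nerve as removed and list the cornea among the parts kept.

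The comparison of genotypes asks whether the frameshift allele changes the keratin program of the RPE, where Myrf acts, or of the neighbouring surface epithelium. In surface epithelium-like cells 0 of 9 members differed 2-fold between the libraries. The background is 7.2% of 10242 genes with at least 20 UMIs in the class that differed 2-fold in either direction, 5.01% lower and 2.19% higher in humdG. With at least 100 UMIs, a minimum that all 9 members passed, 1.75% of 3888 genes differed 2-fold. The count turned on how the cells were taken. By a gate of at least 3 epithelial markers (101 and 63 cells) 7 of 9 members were 2-fold lower in humdG, beside 10.2% of genes, and 0 were higher, beside 20.9%. The gated cells held 26778 and 13359 member UMIs, against 26971 and 13271 in the class. Krt15 stood at 4751 and 1943 CPM by the gate, against 11551 and 9857 in the class. The gated cells thus held similar member UMIs among more UMIs of other genes, and the Krt15 level fell further in humdG. The cause of the gate ratios was not tested. With each cell of the class given the same weight 5 of 9 were 2-fold lower, beside 14.4%, and 0 higher, beside 8.28%. The median log2 ratio over all genes was 0.32 by the gate. In the class itself, with UMIs summed, the median log2 ratio of humdG to humWT was −0.12 over the 9 members and −0.08 over all genes. Among the simple-epithelium genes Krt18 stood at log2 0.34 (exact interval 0.02 to 0.66), Krt7 at 0.20 (−0.03 to 0.43) and Krt8 at 0.03 (−0.21 to 0.26), and all 3 changed sign by the gate, to −0.66, −0.85 and −1.07, and with equal cell weights, to −0.12, −0.67 and −0.65. Krt12 at −0.31, Krt14 at −0.27, Krt15 at −0.23, Krt19 at −0.20 and Krt5 at −0.12 were lower in humdG, with intervals under 0, and Krt17 stood at −0.02 (−0.48 to 0.44). These small values turn on few cells, as the next paragraphs show.

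In RPE-like cells 8 members passed the minimum of 20 UMIs and 0 of them differed 2-fold, beside 8.37% of 12627 genes, 5.9% lower and 2.47% higher in humdG. With at least 100 UMIs 3 members passed and 0 differed 2-fold, beside 3.91% of 8181 genes. The median log2 ratio was 0.16 over the 8 members and −0.07 over all genes with at least 20 UMIs. The 8 include Krt15, Krt5, Krt12 and Krt14, at the level of free RNA, and Krt19, which overlapped it. The median is therefore not one of RPE keratins alone. Krt18 was at log2 0.09 (0.02 to 0.16) and Krt8 at 0.05 (−0.13 to 0.23). The Krt18 ratio changed sign, to −0.03, when the larger cluster was taken alone. The smaller cluster, with little Krt18, was 74 of 545 cells in humWT and 16 of 391 in humdG. The ratio was −0.21 when each cell had the same weight. In the cells of at least 10000 UMIs it was 0.14 (0.06 to 0.22). Krt7, above free RNA in humWT, was at −0.57 (−1.53 to 0.33), and at −1.08 (−2.34 to 0.02) in those deep cells, from 32 and 9 UMIs. Krt15 was at 0.65 (0.28 to 1.01) at a level no higher than in red blood cell-like cells, where it was at 0.39 (−0.10 to 0.87).

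**Figure D3:**
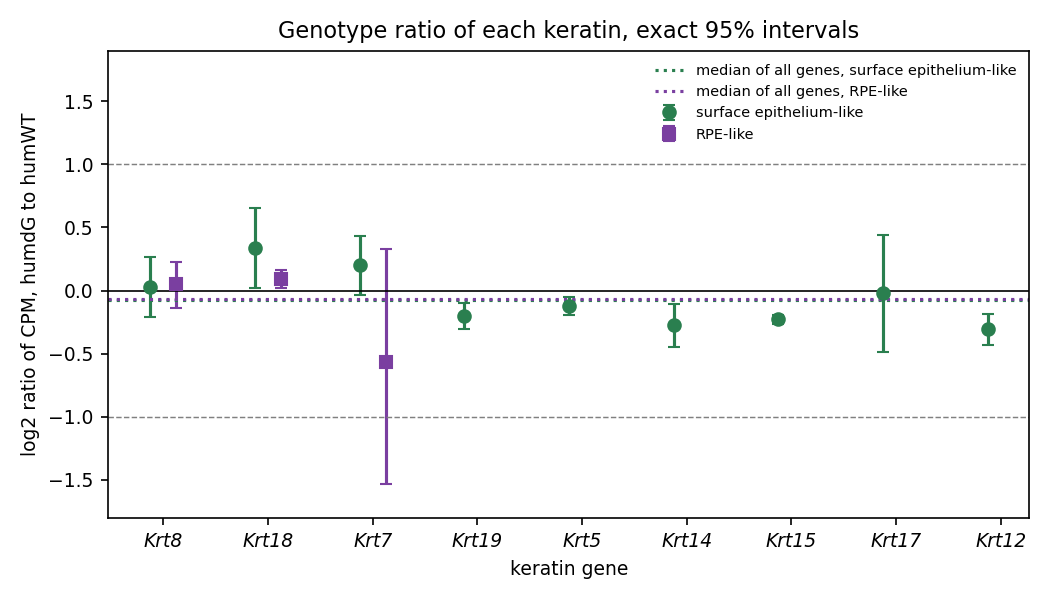
log2 ratio of CPM, humdG to humWT, for each keratin with exact 95% intervals from counting; green circles are surface epithelium-like cells, purple squares are RPE-like cells (Krt8, Krt18 and Krt7, the members above free RNA there in at least 1 library), dotted lines are the medians of all genes and dashed lines mark 2-fold. All points lie between −0.57 and 0.34, inside the 2-fold lines, and the interval of Krt7 in RPE-like cells crosses the lower line.

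Few cells gave most of the surface keratin. In humWT the 10 cells with most UMIs of the 9 members held 65.3% of them, and in humdG 85.1%. The 2 cells with most Krt15 held 35.8% and 48.0% of its UMIs, and these were also the deepest cells of their libraries in the class, with 124309 and 102318 UMIs in humWT and 91463 and 59981 in humdG. Without the 2 deepest cells of each library, an alternative added after seeing the data, the log2 ratio of the 9 summed members moved from −0.20 to −0.45. With each cell given the same weight it was −1.12. Whether such deep droplets held a single cell was not tested beyond the doublet filter.

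The class also held cells with little keratin. Clustered again without keratins, it split into sub-cluster 1 (61 and 40 cells, median 15958 and 8602 UMIs) and sub-cluster 0 (45 and 87 cells, median 3352 and 1859 UMIs). Sub-cluster 1 held 93.8% and 97.9% of the member UMIs. Krt15 stood at 12955 and 12317 CPM in it and at 4056 and 1058 CPM in sub-cluster 0. The 9 epithelial markers summed to 2002 and 2063 CPM in sub-cluster 1 and to 835 and 296 CPM in sub-cluster 0, where 10 of 45 and 0 of 87 cells had at least 3 of them. Sub-cluster 0 was led by hemoglobin and histone genes, and hemoglobin gave 0.669% and 2.40% of its UMIs against 0.135% and 0.132% in sub-cluster 1. It made up 42.5% of the class in humWT and 68.5% in humdG, and neither sub-cluster reached the 3 markers needed for a name of its own. Within sub-cluster 1 the genotype ratio of the summed members was −0.03, Krt15 stood at −0.07, Krt5 at 0.07 and Krt12 at 0.01. These ratios hold for the sub-clustering resolution of 0.3. At 0.6 the leading sub-cluster (37 and 27 cells) held 91.1% and 97.5% of the member UMIs. There Krt15 stood at 15433 and 13396 CPM, Krt12 at 1465 and 1351 and Krt5 at 3858 and 3868. Krt15, Krt12 and Krt19 (2250 and 1985 CPM) were thus lower in humdG there, with intervals apart for Krt15 and Krt19 and overlapping for Krt12. Krt17 (63.2 and 108 CPM) was higher in humdG with intervals apart. Krt14 (643 and 709), Krt18 (186 and 233), Krt7 (372 and 429) and Krt8 (379 and 387) were higher with overlapping intervals. The Krt17 gap turned on few cells. At 0.3 Krt17 stood at 92.4 and 98.6 CPM in sub-cluster 1, with overlapping intervals. At 0.6 another sub-cluster (26 and 14 cells) held 49 and 0 UMIs of Krt17 and 217 and 2 of Krt14. In the class 1 humWT cell held 41.6% of the humWT Krt17 UMIs. By UMIs sub-cluster 0 was 15.8% of the class in humWT and 21.8% in humdG, and Krt15 was also lower in humdG within it. How much of the class ratio came from the share of sub-cluster 0 and how much from its own lower level was not tested.

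Single cells of the surface epithelium carried different sets of keratins. The 71 cells with at least 8000 UMIs (49 humWT and 22 humdG) were each thinned to 8000 UMIs, and a cell was called positive for a gene at 3 or more UMIs, limits chosen after seeing the data. Krt15 was positive in 64 cells and Krt5 in 62, both together in 60, so this type I and type II pair ran through nearly the whole set. Krt14 was positive in 28 cells, Krt19 in 28, Krt8 in 19, Krt12 in 12, Krt7 in 11, Krt18 in 8 and Krt17 in 8. The median cell held 51 Krt15 and 18 Krt5 UMIs of its 8000, and the highest 253 and 85.

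Krt14, the basal partner of Krt5, and Krt19 were mostly in different cells. Krt14 was positive in 28 cells, all of them positive for Krt5, and 5 of them, all humWT cells, for Krt19. All 8 Krt17 cells were Krt14 cells and 0 were Krt19 cells, with the caveat that Krt14 and Krt17 share sequence. Krt7 was nested in Krt19: all 11 Krt7 cells were positive for Krt19 and also for Krt6a, a keratin of suprabasal and activated epithelium, and 0 were positive for Krt14. All 8 Krt18 cells were Krt19 cells, and 7 of them were Krt8 cells. Krt8 was positive in 14 Krt19 cells and 7 Krt14 cells. Over the 71 cells the correlation of log2 levels was 0.81 for Krt5 with Krt15, 0.76 for Krt7 with Krt19, 0.64 for Krt8 with Krt18, 0.50 for Krt14 with Krt17 and −0.51 for Krt14 with Krt19. These describe cells of 2 libraries that differ in depth before thinning.

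Krt12 was positive in few cells. The 12 cells (8 humWT and 4 humdG) were all positive for Krt5 and Krt15, and after thinning 0 reached the 3 UMIs for Krt8. Before thinning, Krt8 stood at 235 CPM in the cells with Krt12 and Krt19, all of it in 1 cell. Of the 12 cells, 4 were also Krt14 cells, 4 were Krt19 cells and 4 were neither. The Krt12 level in these 3 groups, which were made on Krt12 itself, was 3379, 6886 and 8872 CPM. Pax6, a transcription factor of the corneal and conjunctival lineage, stood at 612 to 738 CPM in the Krt12 groups and at 376 to 647 CPM in the groups without Krt12, so the ranges overlapped. Upk1b, a uroplakin membrane protein, stood at 690 CPM in cells with Krt12 and Krt19, at 492 in the 19 cells with Krt19 alone and at 9.06 in the 19 with Krt14 alone. Muc4, a membrane mucin, stood at 253 CPM in the Krt19 cells and had 0 UMIs in the Krt14 cells. Trp63, the regulator of stratified basal cells, stood at 401 CPM in the Krt14 cells and 64.1 in the Krt19 cells. Krt17 stood at 362 CPM in cells with Krt14 alone and at 4.69 in cells with Krt19 alone. It did not follow Krt14 in the other groups, with 0 CPM in cells with Krt12 and Krt14 and 8.35 in cells with Krt14 and Krt19. Those groups, of 4 and 5 cells, held humWT cells only, while 11 humWT and 8 humdG cells had Krt14 alone. The contrast is thus partly one of libraries. Krt17 was positive in 3 of 20 humWT and 5 of 8 humdG Krt14 cells. Of all 28 Krt14 cells, 20 were not positive for Krt17.

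**Figure D4:**
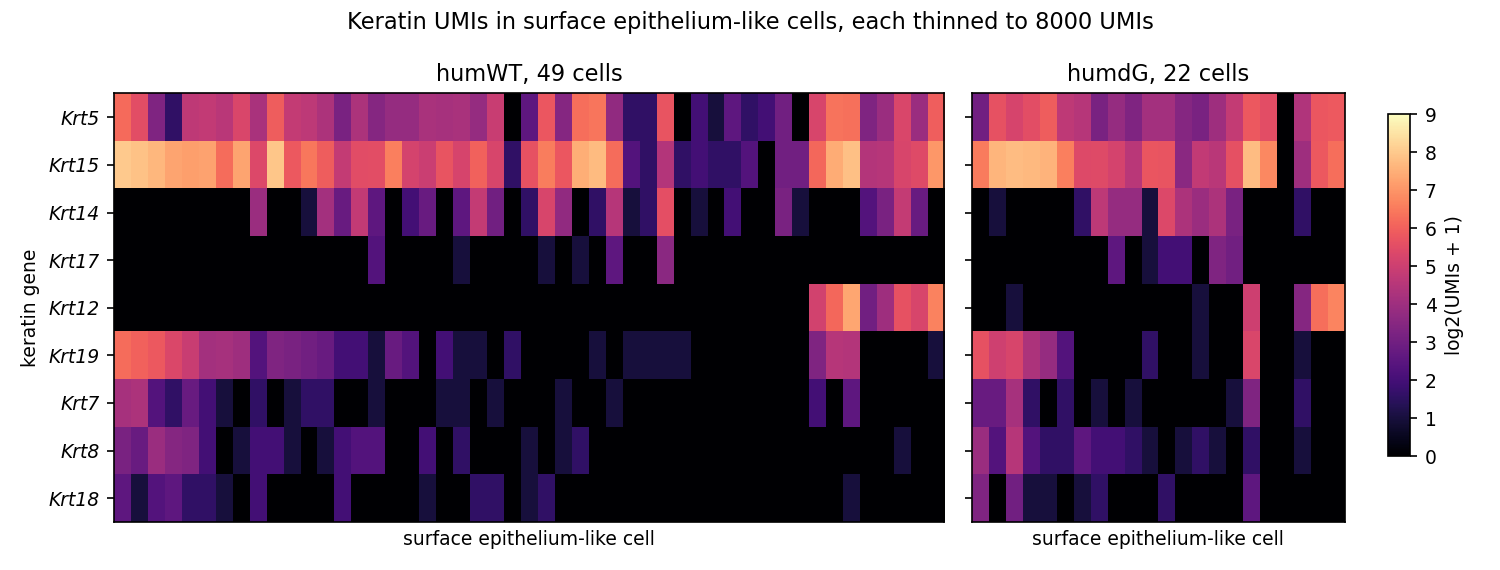
Keratin UMIs in each of the 71 surface epithelium-like cells with at least 8000 UMIs, thinned to 8000; columns are cells (49 humWT, 22 humdG), rows are keratins and color gives log2(UMIs + 1). Columns are sorted within each library by the log2 level of Krt12 less that of Krt19, Krt8, Krt18 and Krt7 summed. The sort itself thus places Krt19, Krt7 and Krt8 to the left and Krt12 to the right. Krt5 and Krt15 run across nearly all columns, and Krt14 and Krt17, not used in the sort, lie mostly in the middle.

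Outside the 2 epithelia the members stood at low levels, but their UMIs were not few. The unnamed cells held 4420 (humWT) and 6865 (humdG) member UMIs, against 5187 and 3170 in RPE-like cells. The members summed to 145 and 172 CPM in unnamed cells, against 1202 and 1291 in RPE-like cells. Krt15 was found in all 12 other classes, from 12.3 to 65.7 CPM in humWT and from 14.2 to 61.9 CPM in humdG. A single source of free RNA should keep 2 genes in 1 ratio, so Krt8, Krt18, Krt7, Krt19 and Krt12 were each set beside Krt15. In surface epithelium-like cells Krt12 gave 9.46% and 9.01% of the UMIs of Krt12 and Krt15 together. In 11 of the other classes it gave from 0% in neural crest and glia-like cells, on 11 and 9 Krt15 UMIs, to 19.3% (12.7 to 27.6) in red blood cell-like cells of humWT. Blood vessel-like cells stood at 4.40% (1.92 to 8.48) in humWT and 13.5% (8.22 to 20.5) in humdG, so the ratio was not the same in all of these classes. In photoreceptor precursor-like cells it gave 35.3% (29.8 to 41.2) in humWT and 47.6% (42.8 to 52.4) in humdG, and in neurogenic-like cells 38.7% (29.9 to 48.0) and 30.6% (25.4 to 36.2).

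The Krt12 level in photoreceptor precursor-like cells was 19.3 CPM (100 UMIs) in humWT and 36.4 CPM (207 UMIs) in humdG, a log2 ratio of 0.92 (0.57 to 1.28). The UMIs lay in 73 of 626 and 135 of 839 cells, with at most 4 and 8 in a cell. The antisense gene A830036E02Rik overlaps 5304 bases of Krt12 on the opposite strand and was most abundant in the same class, at 54.1 and 96.8 CPM, against 9.11 and 3.73 CPM in surface epithelium-like cells. It was found in 64.4% and 67.4% of the photoreceptor precursor-like cells with a Krt12 UMI and in 15.4% and 19.7% of those without. Cells with a Krt12 UMI were deeper, at medians of 8326 and 8175 UMIs against 4362 and 4601. With cells thinned to 4000 UMIs for the antisense gene, the shares were 39.3% (27.1 to 52.7) and 48.7% (39.2 to 58.3) against 13.4% and 15.8%. Whether the counting used strand is not given in the sources used here, so Krt12 UMIs in these cells cannot be told apart from reads of the antisense gene. In neurogenic-like cells the antisense gene stood at 7.65 and 6.74 CPM, under Krt12 at 14.1 and 14.6. The antisense gene was found in 17.6% and 14.5% of neurogenic-like cells with a Krt12 UMI and in 3.59% and 3.36% of those without. With cells thinned to 4000 UMIs for this gene, the humWT shares were 10.0% (2.11 to 26.5) against 2.89% (1.25 to 5.61). In humdG they were 8.62% (2.86 to 19.0) against 1.47% (0.594 to 3.01), and the intervals overlapped in both libraries. The part of the antisense gene in the Krt12 UMIs of neurogenic-like cells was not tested.

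Krt18 gave 40.4% and 41.8% of Krt18 and Krt15 UMIs in photoreceptor precursor-like cells, beside 28.9% and 14.3% in red blood cell-like cells. The intervals of 34.9 to 46.1 and 21.4 to 37.3 overlapped in humWT, and those of 36.9 to 46.9 and 7.07 to 24.7 did not in humdG. A mesenchyme-like cluster stood at 37.9% (33.3 to 42.7) and 37.4% (31.7 to 43.3), overlapping the photoreceptor precursor-like values in both libraries, and a blood vessel-like cluster at 35.2% in humWT and 13.8% in humdG. The Krt18 level in photoreceptor precursor-like cells was 23.9 and 28.8 CPM, and in cartilage-like cells 24.5 and 11.8 CPM. The 82 and 96 photoreceptor precursor-like cells with a Krt18 UMI held more Rcvrn, a calcium sensor of photoreceptors, at 60.9 and 40.5 CPM against 8.39 and 3.35 in the others, and more of the cone gene Pde6h, at 294 and 296 CPM against 77.4 and 64.7. Their median depths were 8871.5 and 7827 UMIs against 4371 and 5000, and the part of depth was not tested.

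**Figure D5:**
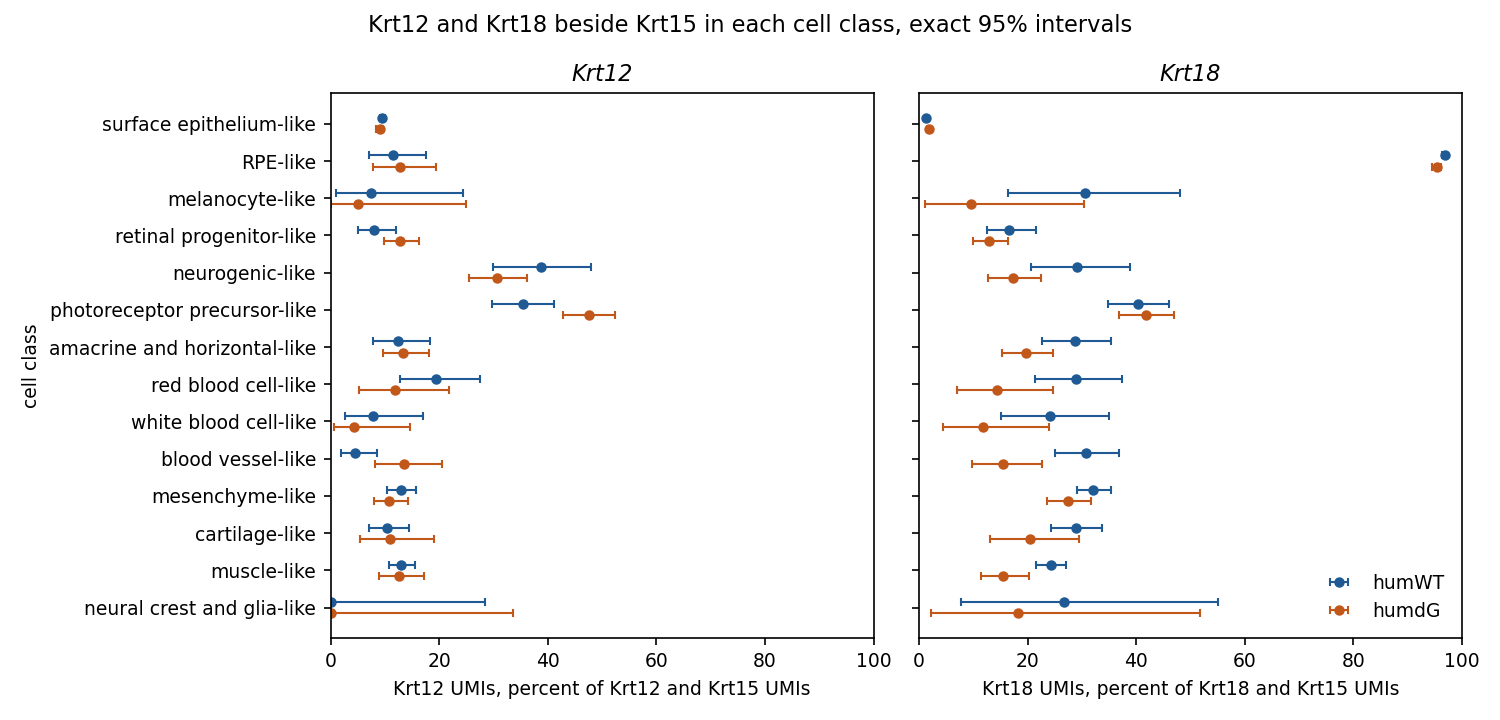
Share of Krt12 UMIs among Krt12 and Krt15 UMIs (left) and of Krt18 UMIs among Krt18 and Krt15 UMIs (right) in each class, in percent with exact 95% intervals; blue is the humWT library and orange the humdG library. On the left, neurogenic-like and photoreceptor precursor-like cells lie to the right of the rest at 30.6% to 47.6%, and on the right RPE-like cells stand at 96.8% and 95.4%.

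Krt8 and Krt19 each had a higher share beside Krt15 in 1 further cluster, with no higher level than elsewhere in humWT. Krt8 stood at 9.32 and 16.6 CPM in the muscle-like cluster led by satellite cell and myoblast genes such as Pax7 and Myog, where it gave 33.8% and 45.9% of Krt8 and Krt15 UMIs, against 8.57% and 9.09% in red blood cell-like cells. Its level in the other muscle-like cluster was 10.2 and 11.7 CPM and in the largest unnamed cluster 9.11 and 9.28 CPM. Krt19 stood at 7.83 and 5.998 CPM in 1 mesenchyme-like cluster, at 28.9% and 23.2% of Krt19 and Krt15 UMIs, and at 8.14 and 14.8 CPM in the largest unnamed cluster. In an unnamed cluster with photoreceptor and other retinal markers Krt18 stood at 57.9 CPM in humWT and 14.7 in humdG.

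Other keratins were rarer. Of 53 genes named Krt with a number, 52 had a UMI and 19 had at least 100, 10 of them outside the 9 members. In surface epithelium-like cells Krt6a stood at 927 and 852 CPM, above Krt14. Krt75, a keratin of hair follicle companion layer, stood at 37.9 and 37.3 CPM and Krt80 at 30.8 and 32.3. Of the 7 with at least 20 UMIs there, 1 was 2-fold higher, beside 2.19% of all genes, and 1 was 2-fold lower in humdG, beside 5.01%, and both rested largely on 1 cell. Krt13, a keratin of mucosal epithelia, stood at 95.3 and 377 CPM, and 1 humdG cell held 93.4% of its humdG UMIs. Krt4, its type II partner, stood at 123 and 43.5 CPM, and 1 humWT cell held 57.4% of its humWT UMIs. Krt10, a type I keratin of differentiating epidermis, was found in every class, at 63.3 and 58.0 CPM in retinal progenitor-like and 61.2 and 65.5 CPM in neurogenic-like cells. Krt73 was highest in amacrine and horizontal-like cells, at 97.1 and 83.6 CPM, and Krt23 in RPE-like cells, at 12.3 and 19.95 CPM. Krt1 stood at 15.4 and 17.4 CPM in surface epithelium-like cells and at 10.9 and 9.77 in RPE-like cells, and Krt20 at or under 2.17 CPM in mesenchyme-like cells.

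The genes that anchor keratins were mostly highest where the surface keratins were. Of 18 genes of desmosomes, hemidesmosomes and linker proteins, 16 (humWT) and 15 (humdG) were highest in surface epithelium-like cells. Dsp, the desmosomal linker that binds keratin, stood at 624 and 728 CPM there, Perp at 712 and 781 and Col17a1, the hemidesmosomal collagen, at 330 and 281. Of all 18, 0 differed 2-fold there, beside 7.2% of all genes, with a median log2 ratio of −0.22. Itgb4, the integrin subunit of hemidesmosomes, was lowest at −0.80 (−1.26 to −0.36). In RPE-like cells 9 had at least 20 UMIs. Of these, 1 was 2-fold higher in humdG, beside 2.47% of all genes, and 0 were lower, beside 5.9%. The 1 gene was Dsp, at 12.7 and 26.9 CPM, log2 1.08 (0.54 to 1.62). Of 8 epithelial regulators, 8 were measured in surface epithelium-like cells and 0 differed 2-fold, with Trp63 at 207 and 153 CPM and Pax6 at 500 and 481 CPM. In RPE-like cells 3 were measured and 0 differed 2-fold.

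Other filament genes had their highest levels outside the surface epithelium in both libraries. Vim, the mesenchymal filament protein, stood at 761 and 778 CPM in RPE-like cells beside Krt18, and at 254 and 113 CPM in surface epithelium-like cells, a log2 ratio of −1.17 (−1.52 to −0.83). Nefl, a neurofilament, stood at 4.21 and 17.4 CPM there on 6 and 14 UMIs. In RPE-like cells 2 of the 5 measured differed 2-fold, beside 8.37% of all genes, Nefm at 4.87 and 15.9 CPM and Des, the muscle filament, at 17.4 and 7.74. Neurofilament and muscle genes mark other cells of the eye cup, and the part of free RNA in these values was not tested.

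Likeness was measured as Pearson's correlation of log2(CPM + 10) over 48 points, the 24 clusters in each of 2 libraries, among 17335 genes that are not keratins. Krt18 was closest to Upk3b (0.93), Cpxm2 (0.91) and Clic6 (0.90), all higher in RPE-like than in surface epithelium-like cells. Krt8 was closest to Upk3bl (0.94), Gsta3 (0.93) and Crb3 (0.92). Krt7 had Msln (0.98) and Pdzk1ip1 (0.98) among its closest genes. Krt14 and Krt15 had Col17a1 and Dsc2 among their closest genes, Krt5 and Krt14 had Sfn, and Krt5, Krt19, Krt17 and Krt12 had Gpha2. Among the members, Krt8 and Krt18 correlated at 0.86, Krt18 with the 7 others at 0.38 to 0.54, and those 7 with each other at 0.91 to 0.98. The points share libraries and free RNA. The surface epithelium-like cluster is the extreme point of every member but Krt18, whose extreme is the larger RPE-like cluster, at 1097 and 1076 CPM.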

How the data were processed

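Single-cell 3′ libraries were made on the 10x Genomics platform. Per the labels, the authors used Cell Ranger 7.1.0 with mm10 to make the deposited UMI counts per gene and barcode, and Seurat 4.1.1 for their own analysis. Whether counting used strand, and which annotation, is not given in the sources used here. The study states fewer cells than the deposited barcodes. A barcode stayed if it had over 500 genes and a mitochondrial share below 15%. Scrublet (scanpy 1.11.5) called 1 and 0 doublets, so the 5% of barcodes with the highest scores were removed (851 and 956). Cells were integrated with Seurat 5.3.0 (CCA, 2000 variable genes without keratins, 20 dimensions, 30 components) and clustered at a resolution of 0.5. A class needed at least 3 raised markers.

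UMIs were summed per class and library as CPM. Intervals are exact Poisson (levels), exact conditional binomial (ratios) and Clopper-Pearson (shares), all 95%, and cover counting error only, since each genotype was 1 library, so no test between genotypes was run. The interval code was tested on simulated data. Sequences and positions are from RefSeq (GRCm38.p6) and GENCODE M21. Named genes were the 9 members, other keratins with at least 100 UMIs, lists of anchoring, filament and regulator genes, and for each member the 3 non-keratin genes most like it. The members and lists were chosen with earlier results of these data known. Statistics used numpy 2.4.6, scipy 1.17.1, pandas 2.3.3 and R 4.3.3. Alternatives covered filters, doublets, integration, resolution, a marker gate, cell weighting and single cells.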

Additional observations from a re-analysis of the deposited data

Results flagged for a closer look

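Among values from at least 20 UMIs, the genotype ratios of Krt18, Krt19, Krt5, Krt15 and Krt12 pointed in opposite directions in different cell classes, with intervals on opposite sides of 0. Mesenchyme-like and unnamed cells were left out of this list. With mesenchyme-like cells Krt8 also met the rule, at 0.58 in muscle-like and −0.97 in mesenchyme-like cells. The share of all genes that meet the rule was not counted, so the list is not a result about keratins. The difference between classes was not tested for any keratin, since each genotype was 1 library. Krt18 had a log2 ratio of humdG to humWT of 0.088 in RPE-like and 0.34 in surface epithelium-like cells, and of −0.93 in amacrine and horizontal-like, −1.06 in cartilage-like and −0.90 in muscle-like cells. In the last 3 classes Krt18 stood at 8.67 to 24.5 CPM, and in red blood cell-like cells, the measure of free RNA, at 17.2 and 9.23 CPM. Krt19 had a log2 ratio of 1.11 in muscle-like cells (37 and 29 UMIs), and of −0.92 in retinal progenitor-like cells (48 and 43 UMIs) and −0.20 in surface epithelium-like cells. Krt5 had a log2 ratio of 0.88 in photoreceptor precursor-like cells, where it stood at 8.09 and 14.9 CPM, and of −0.12 in surface epithelium-like cells. Krt15 had log2 ratios of 0.65 in RPE-like, 0.56 in neurogenic-like and 0.63 in blood vessel-like cells, and of −0.39 in cartilage-like and −0.23 in surface epithelium-like cells. Krt12 had a log2 ratio of 0.92 in photoreceptor precursor-like cells, of 2.40 in blood vessel-like cells (8 and 18 UMIs) and of −0.31 in surface epithelium-like cells. In photoreceptor precursor-like cells the antisense gene A830036E02Rik moved with it, at 54.1 and 96.8 CPM. The part of free RNA and of the antisense gene in these ratios was not tested. Some of these ratios changed sign when cells were taken otherwise. In RPE-like cells Krt18 moved to −0.0097 merged, −0.029 in the larger cluster and −0.21 with equal cell weights. In surface epithelium-like cells Krt18 moved to −0.66 by the marker gate and −0.12 with equal cell weights. In sub-cluster 1 alone Krt5 moved to 0.066 and Krt12 to 0.011.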

How the results depend on the processing

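The log2 ratio of the 9 summed keratins in surface epithelium-like cells was −0.20 and stayed negative under all 13 alternatives: −0.15 with more than 200 genes per barcode, −0.14 under 10% mitochondrial UMIs, −0.14 without doublet removal, −0.14 with keratins among the variable genes, −0.23 for libraries merged without integration, −0.23 at a resolution of 1.0, −1.25 for cells gated on markers (101 and 63 cells), −0.028 in sub-cluster 1 alone, −0.45 without the 2 deepest cells, −1.12 with each cell given the same weight and −0.30 without the cell with most UMIs. In this class, of ratios whose interval lay on 1 side of 0, Krt18 changed sign at −0.66 by the marker gate and −0.12 by cell, and Krt5 at 0.066 and Krt12 at 0.011 in sub-cluster 1. Sub-cluster 1 was taken at a resolution of 0.3, and at 0.6 Krt12 was lower in humdG in the leading sub-cluster. Krt14, lower in humdG in the class, was higher in that sub-cluster, at 643 CPM in humWT and 709 in humdG, with overlapping intervals. Another sub-cluster at 0.6 held 217 humWT and 2 humdG UMIs of Krt14. Of ratios whose interval held 0, Krt7 (0.20) changed sign at −0.85 by the gate and −0.67 by cell, Krt8 (0.029) at −1.07 by the gate, −0.65 by cell, −0.0088 merged and −0.0063 at a resolution of 1.0, and Krt17 (−0.017) under 7 of 13 alternatives, at most 0.17. In RPE-like cells Krt18 changed sign at −0.0097 merged, −0.029 in the larger cluster and −0.21 by cell, and stood at 0.52 by the gate (2469 and 978 cells). Krt8 stood at 0.45 by the gate and changed sign at −0.26 by cell, −0.063 merged, −0.075 in the larger cluster and −0.072 without the 10 deepest cells. Krt15 in surface epithelium-like cells moved from 11551 CPM in humWT to 11924 under 10% mitochondrial UMIs, 11356 merged, 4751 by the gate and 5724 by cell, and from 9857 CPM in humdG to 10145 with more than 200 genes, 10595 under 10% mitochondrial UMIs, 10099 without doublet removal, 9456 merged, 9603 at a resolution of 1.0, 10324 with keratins among the variable genes, 1943 by the gate and 2656 by cell. Krt18 in RPE-like cells moved from 979 CPM in humWT to 1027 under 10% mitochondrial UMIs, 1085 merged, 195 by the gate and 653 by cell, and from 1040 CPM in humdG to 279 by the gate and 564 by cell. By the gate Krt18 had 4575 and 2652 UMIs in RPE-like cells, against 4222 and 2555 in the class. The lower gate levels thus went with more UMIs of other genes among the cells taken. The cause of these moves was not tested.

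The share of all genes 2-fold apart in surface epithelium-like cells was 7.2% with at least 20 UMIs and 1.75% with at least 100, and in RPE-like cells 8.37% and 3.91%. Cells taken alone by sub-cluster, by depth or by the larger RPE-like cluster were chosen after seeing the data. No paired analysis was possible because each genotype has 1 library, and no library could be left out. Depth limits the low members: a level from 3 UMIs equals 2.10 and 3.73 CPM in surface epithelium-like cells and 0.695 and 1.22 CPM in RPE-like cells.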
